A study of Mus musculus with 8 samples.

Results

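The Schlafen family of the mouse comprises 9 annotated genes that were followed here in αTC1-6, a glucagon-making line of alpha cells from the mouse pancreas. The members were found by symbol: Slfn1, Slfn2, Slfn3, Slfn4, Slfn5, Slfn8, Slfn9, Slfn14 and Slfnl1, out of 75078 genes in the count table. The family was selected on the CPM levels and log2 fold change of Slfn5 in this very comparison, so the difference in Slfn5 is given as a description, with no test. The other 8 members entered by their family name. Poly(A) RNA was sequenced from 4 libraries of cells transfected with a Yy1-overexpressing plasmid (samples 45, 46, 47 and 48) and 4 of cells transfected with an empty plasmid (samples 31, 32, 33 and 34). All cells were of 1 cell line, were transfected 24 h after seeding and were kept in DMEM labelled 11 mM. The labels used here give neither the harvest time nor the share of cells that took up plasmid, and do not say whether the samples came from separate cultures, so the spread behind each p-value may be that of technical repeats.

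Schlafen genes encode proteins with a shared N-terminal core that in several members can cut or bind transfer RNA. The longer members, among them Slfn5, Slfn8, Slfn9 and Slfn14, also carry a helicase-like C-terminal part, which the short members Slfn1 and Slfn2 lack. In mice the family is best known from T cells and myeloid cells, and several members are induced by type I interferon. Yy1 is a DNA-binding zinc finger protein that turns some genes on and others off. Interferon acts on genes of this kind through the interferon-stimulated response element (ISRE), which is bound by STAT and IRF factors.

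Sequences before the annotated gene starts are shown for the 3 members that were expressed well enough to be tested and for Slfn8, the closest copy of Slfn9. Each is the run of 250 bases upstream of the start in RefSeq (GRCm38.p6), an older build than the GRCm39 named for the counts, written 5′ to 3′ on the gene's strand. Capitals mark matches to the ISRE core GAAA-NN-GAAA on either strand. The positions are chr11:82951852-82952101 on the plus strand for Slfn5, chr11:82991831-82992080 on the minus strand for Slfn9, chr11:83020811-83021060 on the minus strand for Slfn8 and chr11:83191080-83191329 on the plus strand for Slfn3.
Slfn5: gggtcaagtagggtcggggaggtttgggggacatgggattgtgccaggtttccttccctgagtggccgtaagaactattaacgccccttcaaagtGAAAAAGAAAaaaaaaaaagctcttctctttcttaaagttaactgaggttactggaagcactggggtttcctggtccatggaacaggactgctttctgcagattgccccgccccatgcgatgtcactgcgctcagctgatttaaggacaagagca
Slfn9: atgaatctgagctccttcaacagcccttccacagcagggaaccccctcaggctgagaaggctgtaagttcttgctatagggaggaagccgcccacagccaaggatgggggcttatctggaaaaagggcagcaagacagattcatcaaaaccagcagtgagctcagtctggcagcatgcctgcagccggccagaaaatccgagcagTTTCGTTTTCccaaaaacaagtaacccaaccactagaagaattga
Slfn8: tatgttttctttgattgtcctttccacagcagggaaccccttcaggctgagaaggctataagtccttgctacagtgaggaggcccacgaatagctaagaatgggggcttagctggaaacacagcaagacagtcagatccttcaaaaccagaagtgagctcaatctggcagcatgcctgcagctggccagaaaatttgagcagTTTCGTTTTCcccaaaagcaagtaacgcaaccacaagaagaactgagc
Slfn3: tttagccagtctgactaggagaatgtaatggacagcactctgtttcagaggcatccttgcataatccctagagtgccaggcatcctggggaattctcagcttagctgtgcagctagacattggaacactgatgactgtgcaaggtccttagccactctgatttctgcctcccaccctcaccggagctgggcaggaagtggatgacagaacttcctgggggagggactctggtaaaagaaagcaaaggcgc
The windows of Slfn9 and Slfn8 were identical at 204 of 255 aligned positions (80.0%), gaps included, and both held the ISRE core on the opposite strand, from 45 to 36 bases before the start in Slfn9 and from 48 to 39 in Slfn8. Slfn5 held 1 match on its own strand 155 to 146 bases before the start. RefSeq lists 2 starts for Slfn8, and the match lies in the windows of both. The other 5 members of chromosome 11 and Slfnl1 had no match, and 2.98% of all 32851 windows held one. The YY1 core AANATGGC, searched on both strands, was in none of the members' windows before the start and in 3.91% of all windows. In the 50 bases after the start it was found in Slfn4 and in no other member, and in 2.05% of all windows. The core TTCNNNGAA of the gamma interferon-activated site was found in none of the members' upstream windows and in 7.02% of all of them. These are matches of letters in short windows and say nothing of binding.

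The libraries held 29680177 to 33347445 summed estimated counts with the Yy1 plasmid and 20679804 to 30570601 with the empty plasmid. Yy1 stood at 4814 to 5897 CPM (depth-scaled counts, with TMM factors) with the Yy1 plasmid and at 168 to 181 CPM with the empty plasmid, so all libraries matched their labels. Of 13 alpha cell markers 11 passed the filter on low counts and none of them was called. Ins1, Ins2 and Ppy, hormone genes of other islet cells, had no count in any library, and of the alpha cell list Gc had none and Loxl4 had 8 counts in all with the Yy1 plasmid and 0 with the empty plasmid. Of 15916 tested genes, 82 (0.515%) were called by edgeR's quasi-likelihood test at an adjusted p under 0.05, 79 of them higher (0.496%) and 3 lower (0.0188%) with the Yy1 plasmid. DESeq2 called 85 genes (0.534%) and limma-voom also 85 (0.534%).

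The family was dominated by Slfn9 in both groups. Of the 9 members 3 passed the filter on low counts, namely Slfn9, Slfn3 and Slfn5, and 6 did not. Slfn9 made up 96.8 ± 0.407% of all Schlafen counts with the Yy1 plasmid and 98.3 ± 0.257% with the empty plasmid (SD, n = 4 each), while Slfn5 made up 1.73 ± 0.310% with the Yy1 plasmid and 0.424 ± 0.0846% with the empty plasmid. Summed over the family, the level was 204 ± 10.8 CPM with the Yy1 plasmid and 213 ± 12.9 CPM with the empty plasmid. Without Slfn9 it was 6.55 ± 0.844 CPM with the Yy1 plasmid and 3.66 ± 0.525 CPM with the empty plasmid. Slfn5 alone made up 3.51 CPM of this with the Yy1 plasmid and 0.903 CPM with the empty plasmid. These sums and shares hold Slfn5, for which the family was chosen, so their differences are described with no test. The Slfn5 difference therefore took place in a minor part of the family's RNA.

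Slfn5 (ENSMUSG00000054404), a long member whose human counterpart restrains interferon-driven transcription, had 124, 81, 123 and 121 counts in Yy1 plasmid libraries 45, 46, 47 and 48. In empty plasmid libraries 31, 32, 33 and 34 it had 33, 18, 19 and 26 counts. On the scaled level this was 3.80, 2.73, 3.70 and 3.79 CPM with the Yy1 plasmid and 1.07, 0.678, 0.931 and 0.931 CPM with the empty plasmid. The groups were far apart, and 1 library of the Yy1 plasmid, number 46, lay below the other 3, which lay between 3.70 and 3.80 CPM. The means were 3.51 ± 0.522 CPM with the Yy1 plasmid and 0.903 ± 0.164 CPM with the empty plasmid (SD, n = 4 each), a ratio of 3.88, and the fitted log2 fold change was 1.95 (SE 0.190). Without library 46 the log2 fold change was 2.05, and over all 8 fits with 1 library left out it lay between 1.83 and 2.05. Library 46 also had the lowest Yy1 level of its group, 4814 CPM, against 5897, 5118 and 5103 CPM in libraries 45, 47 and 48. A relation between the levels of these genes within a group was not tested.

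**Figure D1:**
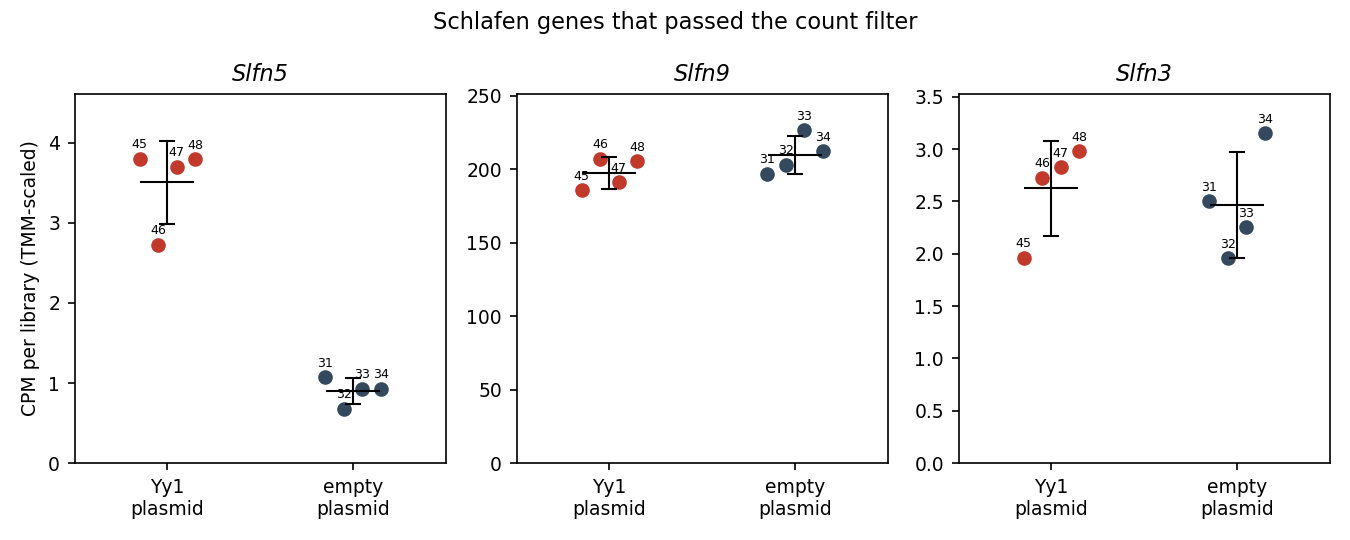
Level of Slfn5, Slfn9 and Slfn3 in each library, in CPM on linear axes that start at 0 and differ in range, with Yy1 plasmid libraries left and empty plasmid libraries right, and sample numbers beside the points. Horizontal bars are means and error bars SD (n = 4). The Slfn5 points of the Yy1 plasmid, 2.73 to 3.80 CPM, lie above all those of the empty plasmid, 0.678 to 1.07 CPM, while the groups overlap in Slfn9 and Slfn3.

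Slfn9 (ENSMUSG00000069793), a long member of the cluster, was the abundant Schlafen transcript of these cells. It had 6051, 6149, 6344 and 6552 counts with the Yy1 plasmid and 6068, 5395, 4620 and 5923 counts with the empty plasmid. Scaled to depth, the levels were 186, 207, 191 and 205 CPM with the Yy1 plasmid and 197, 203, 226 and 212 CPM with the empty plasmid. The groups overlapped, and empty plasmid library 33, the shallowest, was the highest. The means of 197 ± 10.6 CPM with the Yy1 plasmid and 210 ± 12.8 CPM with the empty plasmid (SD, n = 4 each) gave a log2 fold change of -0.09 (SE 0.0470), with an approximate 95% interval from -0.18 to 0.0049 and an adjusted p of 0.937 in edgeR's quasi-likelihood test. DESeq2 and limma-voom did not call it either, with adjusted p of 1.00 and 0.926. A change of Slfn9 as large as that of Slfn5 thus lay outside its interval. The family was chosen for the Slfn5 change, so this contrast between members is no test.

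Slfn3 (ENSMUSG00000018986), a member of intermediate length that in rats has been tied to the differentiation of gut epithelium, had 64, 81, 94 and 95 counts with the Yy1 plasmid and 77, 52, 46 and 88 counts with the empty plasmid. Its levels were 1.96, 2.73, 2.83 and 2.98 CPM with the Yy1 plasmid and 2.50, 1.96, 2.26 and 3.15 CPM with the empty plasmid. The ranges covered each other almost fully. The means were 2.62 ± 0.453 CPM with the Yy1 plasmid and 2.47 ± 0.507 CPM with the empty plasmid (SD, n = 4 each), with a log2 fold change of 0.08 (SE 0.177; approximate 95% interval -0.26 to 0.43; edgeR quasi-likelihood adjusted p = 0.997). The interval leaves out a difference as large as that of Slfn5, for which the family was chosen, and this contrast too is no test. Its sign turned to -0.014 without empty plasmid library 32, with an adjusted p of 0.994 in the same edgeR test. Of the 2 tested members besides Slfn5, 0 were called and 0 had groups without overlap, where 0.515% of all tested genes were called and 3.95% did not overlap.

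The other 6 members had at most 14 counts in any library. Slfn4, an interferon-inducible gene of myeloid cells, had 2, 4, 8 and 14 counts with the Yy1 plasmid and 4, 6, 3 and 2 with the empty plasmid, so the highest value was in Yy1 plasmid library 48 and the groups overlapped. Slfnl1, a more distant relative on chromosome 4, had 1, 3, 6 and 2 counts with the Yy1 plasmid and 4, 2, 3 and 1 with the empty plasmid. Slfn14, known from platelets and red cell precursors, had 6 counts in Yy1 plasmid library 48, none in the other Yy1 plasmid libraries, and 1 count in empty plasmid library 32. Slfn8, a long member expressed in immune cells, had 4, 0, 0 and 1 counts with the Yy1 plasmid and 0, 0, 1 and 2 with the empty plasmid. Slfn2, which keeps T cells quiescent, had 3 counts in all with the Yy1 plasmid and 1 with the empty plasmid. Slfn1, which restrains the growth of thymocytes, had no count in any library, which allows up to 0.0235 CPM over the Yy1 plasmid group and 0.0284 CPM over the empty plasmid group.

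For these rare members the counting error alone was wide. Summed over 4 libraries, Slfn4 stood at 0.220 CPM with the Yy1 plasmid (exact Poisson 95% interval 0.146 to 0.318) and at 0.142 CPM with the empty plasmid (0.0794 to 0.234). Slfnl1 stood at 0.0942 CPM with the Yy1 plasmid (0.0487 to 0.165) and at 0.0946 CPM with the empty plasmid (0.0454 to 0.174). The intervals of the groups overlapped for each of the 5 members with any count, and cover no error beyond counting, PCR copies included. No difference in these members was resolved at this depth, and the size that could have been seen varied by member. In edgeR's fit without a filter the SE of the log2 fold change was 0.651 for Slfn4 and 1.57 for Slfn2. With no filter on low counts, edgeR's adjusted p ran from 0.736 for Slfn14 to 0.995 for Slfnl1. 

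**Figure D2:**
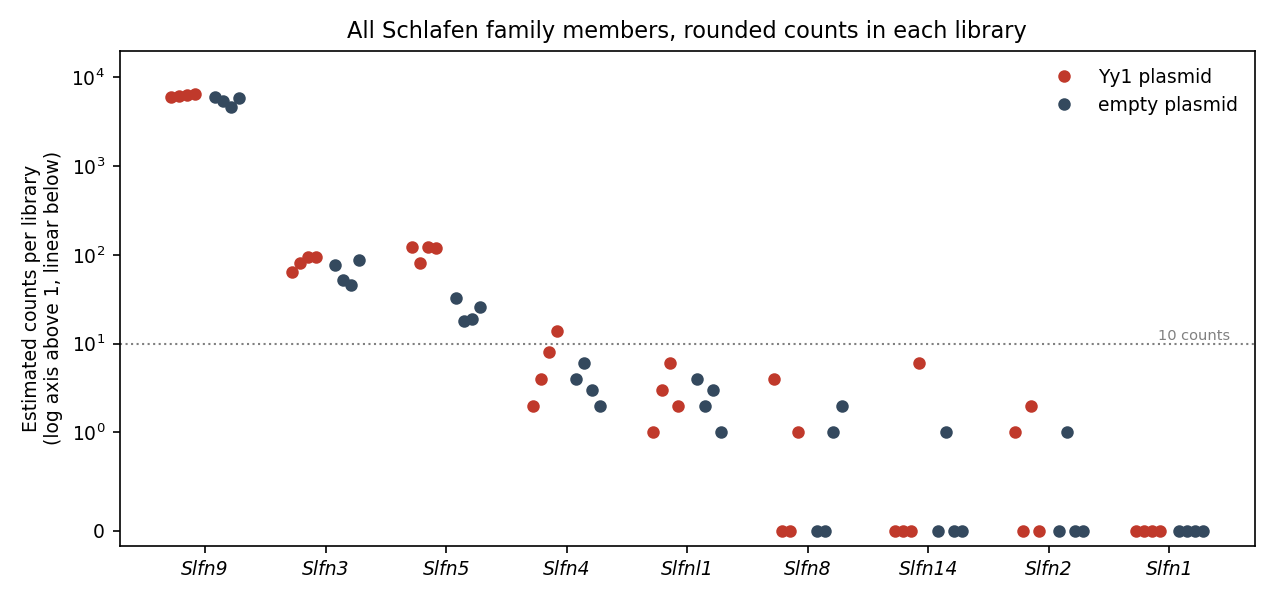
Rounded estimated counts of all 9 Schlafen members in each of the 8 libraries, Yy1 plasmid points left of empty plasmid points for each gene, on an axis that is logarithmic above 1 and linear below. The dotted line is at 10 counts. Slfn9 lies between 4620 and 6552 counts, Slfn3 and Slfn5 between 18 and 124, and the other 6 at 14 or less.

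Levels between genes were compared per kb of the longest transcript in GENCODE mouse release 21. Slfn9 stood at 34.2 ± 1.84 CPM per kb with the Yy1 plasmid and 36.3 ± 2.22 CPM per kb with the empty plasmid (SD, n = 4 each). This was rank 1952 with the Yy1 plasmid and rank 1829 with the empty plasmid among 14355 tested genes with a length, at percentile 86.4 with the Yy1 plasmid and 87.3 with the empty plasmid. Slfn3 was at 0.926 ± 0.160 CPM per kb with the Yy1 plasmid and 0.870 ± 0.179 with the empty plasmid. Slfn5 was at 0.586 ± 0.0873 CPM per kb with the Yy1 plasmid, at percentile 14.1, and at 0.151 ± 0.0274 with the empty plasmid, at percentile 4.05. The median of all these genes was 7.50 CPM per kb with the Yy1 plasmid and 7.56 with the empty plasmid, so Slfn9 lay above it and the other tested members below it in both groups.

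In both groups the order was Slfn9, then Slfn3, then Slfn5, with no overlap between libraries, since Slfn3 was at 0.693 CPM per kb or more with the Yy1 plasmid and Slfn5 at 0.636 or less. With the empty plasmid Slfn3 was at 0.691 or more and Slfn5 at 0.179 or less. Slfn4 and Slfnl1 came next, at 0.0553 ± 0.0415 and 0.0532 ± 0.0367 CPM per kb with the Yy1 plasmid and 0.0363 ± 0.0161 and 0.0550 ± 0.0289 with the empty plasmid, and did not differ beyond their spread. The order of Slfn3 and Slfn5 rests on the length used. With the second longest Slfn5 transcript, of 3.007 kb, Slfn5 would stand at 1.17 ± 0.173 CPM per kb with the Yy1 plasmid, where it overlaps Slfn3, and at 0.300 ± 0.0545 with the empty plasmid. With the shortest coding Slfn5 transcript, of 1.263 kb, it would stand at 2.78 ± 0.413 with the Yy1 plasmid and 0.715 ± 0.130 with the empty plasmid. With the shortest Slfn3 transcript, of 1.816 kb, Slfn3 would stand at 1.45 ± 0.249 with the Yy1 plasmid and 1.36 ± 0.279 with the empty plasmid. By these lengths the order is reversed with the Yy1 plasmid.

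**Figure D3:**
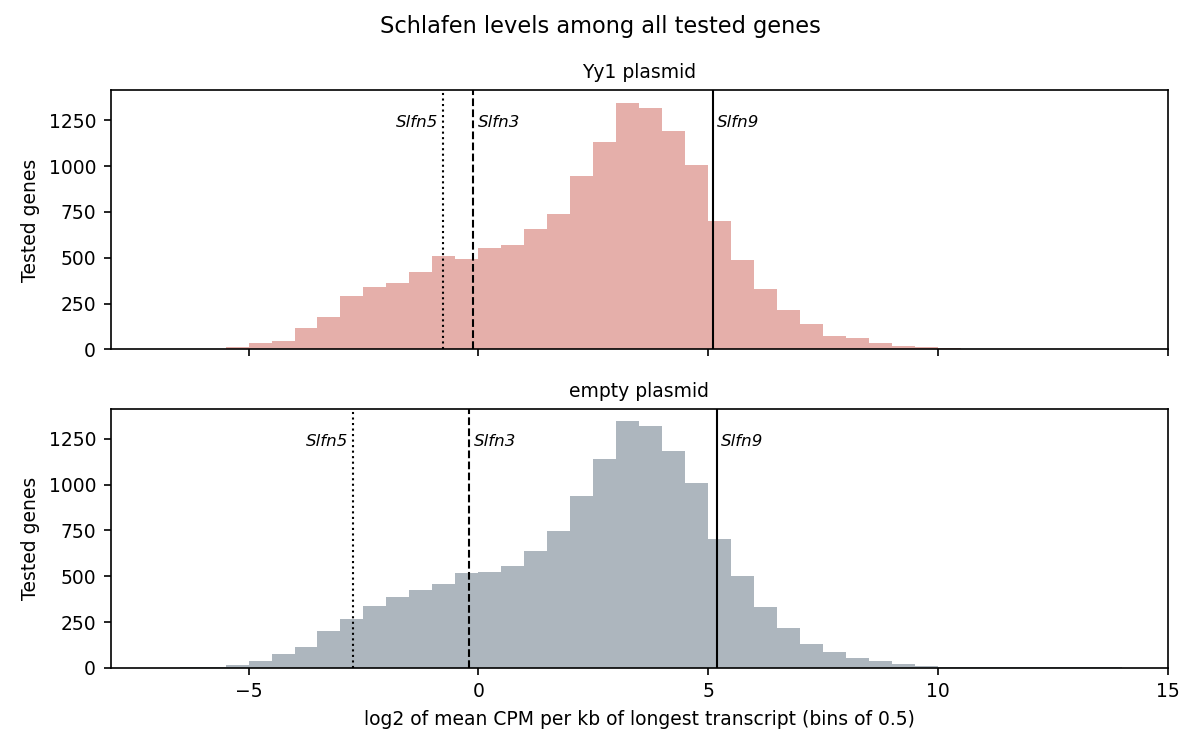
Number of tested genes by log2 of mean CPM per kb of the longest transcript, in bins of 0.5, with the Yy1 plasmid above and the empty plasmid below. Vertical lines mark Slfn9 (34.2 CPM per kb with the Yy1 plasmid, 36.3 with the empty plasmid), Slfn3 (0.926 and 0.870) and Slfn5 (0.586 and 0.151). The Slfn5 line lies further right with the Yy1 plasmid, and the lines of Slfn9 and Slfn3 are in nearly the same place in both panels.

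Because the members arose by duplication, their reads can be hard to assign. Of the distinct 31-base words in Slfn9 transcripts, 23.6% also occur in transcripts of another gene, 14.3% in the pseudogene Slfn10-ps and 13.3% in Slfn8. In Slfn8 the share was 26.8%, with 19.1% in Slfn9, and in Slfn3 it was 30.0%, with 15.1% in Slfn4. For Slfn5 it was 4.92%, and the gene that shared the most with it shared 1.50%. The shared words of Slfn5 were spread over 2286 other genes, against 115 for Slfn9 and 126 for Slfn3. These are shares of words and not of reads, and where the reads of Slfn5 lie on its transcripts was not tested. Beside the 4620 to 6552 counts of Slfn9 per library, Slfn8 and Slfn10-ps had at most 4 each. When Slfn8 and Slfn10-ps were added to Slfn9 and Slfn4 to Slfn3, the log2 fold changes were -0.09 for the sum with Slfn9 and 0.12 for the sum with Slfn3, and edgeR called neither (adjusted p = 0.938 and 0.997). On the opposite strand, 13.2% of the Slfn5 words overlap other transcripts, chiefly the antisense RNA Slfn5os. The library kit keeps strand, but the strand setting of the counting is not given in the sources used here, so reads of the pair may not have been kept apart. Slfn5os had 2 counts in Yy1 plasmid library 48 and none in the other 7 libraries.

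The genes around Slfn5 were read along the chromosome 11 cluster that holds 8 of the members. In annotation order the cluster runs from Slfn5 over Slfn9, Slfn8, Slfn2, Slfn1, Slfn4 and Slfn3 to Slfn14. On the Slfn5 side, Unc45b, a myosin chaperone gene, had 7 counts in all with the Yy1 plasmid and 6 with the empty plasmid, and Fndc8 had no count in any library. Nle1, a ribosome assembly factor beyond Unc45b, stood at 9.07 ± 0.635 CPM with the Yy1 plasmid and 8.95 ± 0.834 CPM with the empty plasmid (SD, n = 4 each; difference on the log2 scale 0.02, SE 0.0907). On the other side, the log2 fold change was 0.02 for Ap2b1, a clathrin adaptor subunit (SE 0.0429) and 0.06 for Rasl10b, a small GTPase (SE 0.0727). Between the first and the last member the annotation places 15 further genes that are in the count table, of which 2 passed the filter. These are the noncoding genes 1190001M18Rik, between Slfn5 and Slfn9, with a log2 fold change of 0.04 (SE 0.176), and AI662270, beyond Slfn3, with -0.02 (SE 0.0857). Of these 2 genes and the 4 tested flanking genes, edgeR called 0, and 0 had an unadjusted p under 0.05, where 0.515% of all tested genes were called and 5.42% had such an unadjusted p.

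**Figure D4:**
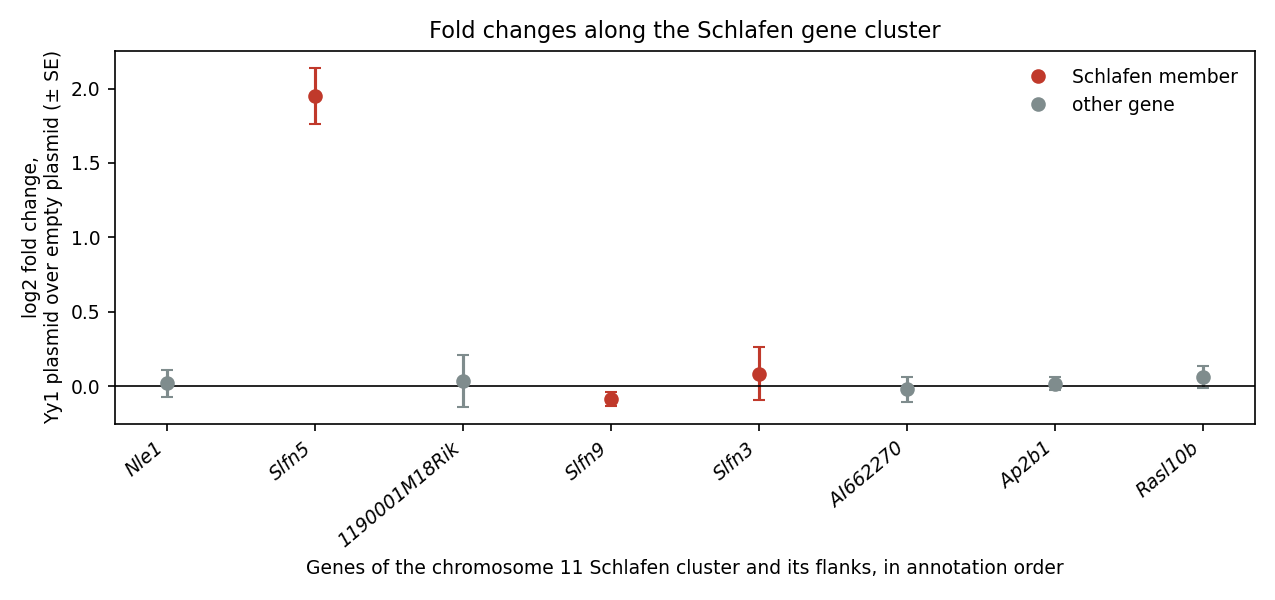
Fitted log2 fold change of the Yy1 plasmid over the empty plasmid, with its SE, for 8 tested genes of the chromosome 11 Schlafen cluster and its flanks, evenly spaced in annotation order. Slfn5 is at 1.95, and the other 7 genes shown lie between -0.09 and 0.08.

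The interferon system, through which Schlafen genes are best known to be induced, was read from lists of its genes. Among 15 ligand and receptor genes 5 were tested, and 8 had no count in any library, among them Ifnb1 and Ifng, which encode beta and gamma interferon. The one ligand gene with any count was Ifna2, with 0 counts with the Yy1 plasmid and 2 with the empty plasmid, named after its values were seen. The tested ones were receptor chains, of which edgeR called 0, where 0.515% of all tested genes were called. Their median log2 fold change was -0.07 against -0.0025 over all tested genes. Ifnar1, a chain of the type I receptor, stood at 35.0 ± 0.710 CPM with the Yy1 plasmid and 36.7 ± 1.90 CPM with the empty plasmid (SD, n = 4 each; log2 fold change -0.07, SE 0.0510). Ifngr1 and Ifngr2, chains of the gamma interferon receptor, had log2 fold changes of -0.08 (SE 0.0566) and -0.07 (SE 0.0681).

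Of 19 genes for kinases, STAT and IRF factors and their brakes, 16 were tested. Among them edgeR called 0, where 0.515% of all tested genes were called. Their median log2 fold change was -0.04, from -0.20 to 0.32. An unadjusted p under 0.05 was found for 2 of the 16, both lower with the Yy1 plasmid, where 5.42% of all tested genes had one. Stat2, which binds the ISRE as part of a complex with Irf9, was at 31.4, 30.6, 33.2 and 31.4 CPM with the Yy1 plasmid and 34.0, 36.5, 36.0 and 32.4 CPM with the empty plasmid. The ranges overlapped slightly (log2 fold change -0.13, SE 0.0536; edgeR adjusted p = 0.733). Irf1, a factor induced by interferon, was at 23.0, 22.5, 22.1 and 22.9 CPM with the Yy1 plasmid and 24.5, 24.2, 25.1 and 24.3 CPM with the empty plasmid. These ranges did not overlap, which holds for 3.95% of all tested genes (log2 fold change -0.11, SE 0.0548; edgeR adjusted p = 0.909). Jak2, a kinase of several cytokine receptors, had a log2 fold change of -0.10 (SE 0.0540). For Irf9, named here after its values were seen, it was -0.20 (SE 0.117).

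Of 49 effector genes that interferon turns on 34 were tested. Of these edgeR called 0, where 0.515% of all tested genes were called, and 0 had an unadjusted p under 0.05, where 5.42% of all did. With so small a share over all genes, a count of 0 in a list of this size is near the background. There were 13 positive and 21 negative log2 fold changes, with a median of -0.05. The largest positive value was 0.77 (SE 0.417) for Oas3, a synthetase that activates RNase L, at 0.493 ± 0.208 CPM with the Yy1 plasmid and 0.299 ± 0.130 CPM with the empty plasmid (SD, n = 4 each). Mx2, an antiviral GTPase, stood at 0.644, 0.471, 0.451 and 0.376 CPM with the Yy1 plasmid and 0.227, 0.264, 0.343 and 0.322 CPM with the empty plasmid. Its groups were close but did not overlap, as in 3.95% of all tested genes (log2 fold change 0.76, SE 0.368; edgeR adjusted p = 0.909). Cmpk2, a mitochondrial nucleotide kinase, was at 6.50 ± 0.504 CPM with the Yy1 plasmid and 5.67 ± 0.437 CPM with the empty plasmid (log2 fold change 0.20, SE 0.104). Its groups did not overlap either, at 6.09 to 7.22 CPM with the Yy1 plasmid and 5.04 to 6.01 CPM with the empty plasmid (edgeR adjusted p = 0.929). Isg15 and Ifit1, classical interferon-induced genes named after their values were seen, had too few counts to be tested, with 8 and 9 counts in all with the Yy1 plasmid and 4 each with the empty plasmid. Most untested effectors had higher means with the Yy1 plasmid, among them Ifitm1, Ifi44 and Gbp2, also named after their values were seen. These had 20, 27 and 6 counts in all with the Yy1 plasmid and 3, 8 and 0 with the empty plasmid. Of the untested effectors Mx1, Zbp1, Oasl2, Oas1g and Ifit1bl1 had lower means with the Yy1 plasmid, and were named likewise.

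Sensors of foreign nucleic acid, which can set off interferon after a transfection, were read from 17 matched genes. Of these 13 were tested, with a median log2 fold change of 0.03. Among them edgeR called 0, where 0.515% of all tested genes were called. An unadjusted p under 0.05 was found for 0, where 5.42% of all had one. A count of 0 among 13 is near these shares. Ifih1, the sensor of long double-stranded RNA, was at 10.6 ± 0.794 CPM with the Yy1 plasmid and 9.76 ± 0.545 CPM with the empty plasmid (SD, n = 4 each; log2 fold change 0.11, SE 0.0832). The log2 fold change was -0.11 for Zcchc3, a cofactor of nucleic acid sensing (SE 0.0711), and 0.48 for Ikbke, a kinase that activates IRF factors (SE 0.380). Cgas and its partner Tmem173, also called STING, did not pass the filter, with 14 and 7 counts in all with the Yy1 plasmid and 19 and 3 with the empty plasmid. Both were named after their values were seen. Both groups had received plasmid DNA.

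The list for the cutting, modification and maturation of transfer RNA, the substrate of Schlafen enzymes, matched 21 genes, and 19 of them were tested. It also held related genes without these roles, among them the kinase genes Eif2ak4 and Map3k20 and the ribonuclease inhibitor gene Rnh1. Again edgeR called 0 of the tested genes, where 0.515% of all tested genes were called. An unadjusted p under 0.05 was found for 0, where 5.42% of all had one. The median log2 fold change was -0.03, with a range from -0.12 to 0.07. Rnaset2b, an acid ribonuclease gene, had a log2 fold change of -0.10 (SE 0.0555), Tsen54, a subunit of the splicing endonuclease, of -0.10 (SE 0.0617) and Trnt1, which adds the CCA end, of -0.06 (SE 0.0409). Of these genes Tsen54 had groups without overlap, as in 3.95% of all tested genes (edgeR adjusted p = 0.953). Over the 5 lists 87 genes were tested, and DESeq2 and limma-voom called 0 as well, where each called 0.534% of all genes. A count of 0 among 87 is near these shares. Among the 87 the log2 fold changes had a median of -0.04, and 35 were positive and 52 negative, while 7730 of all tested genes were positive and 8186 negative.

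**Figure D5:**
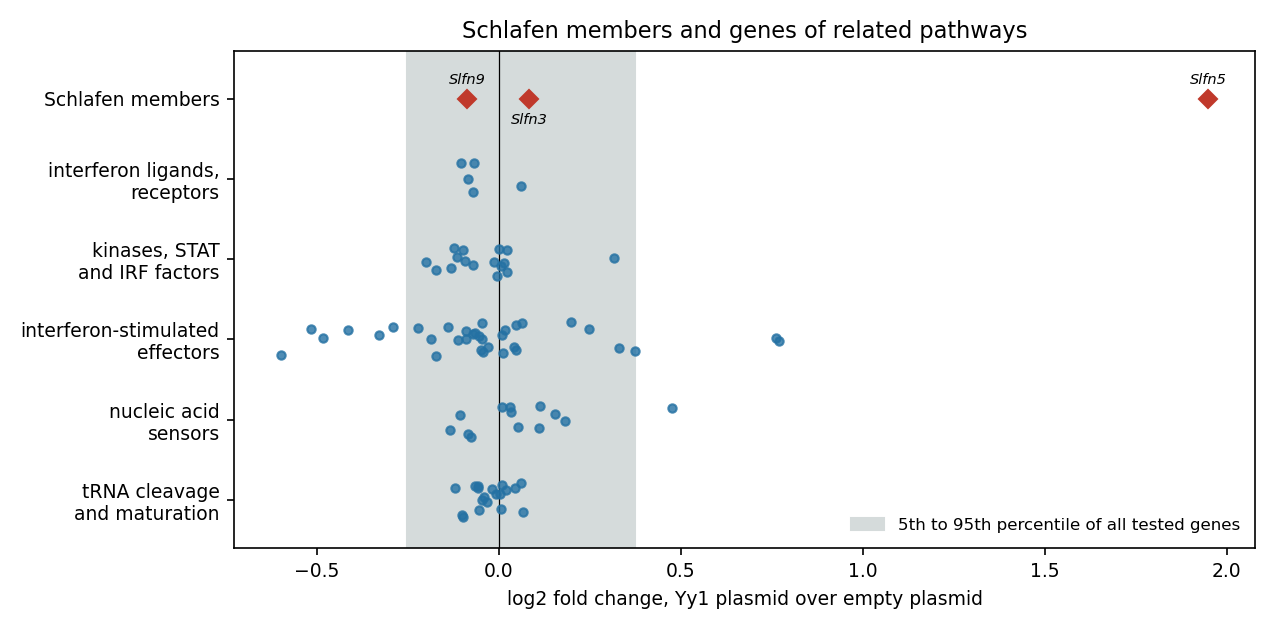
Log2 fold change of the Yy1 plasmid over the empty plasmid for the 3 tested Schlafen members (diamonds) and for the tested genes of 5 related lists (points, spread vertically for sight only). The grey band spans the 5th to the 95th percentile of all tested genes, -0.25 to 0.37. Slfn5, for whose difference the family was chosen, is at 1.95, so its place beyond the lists is no test. The highest genes of the lists are Oas3 and Mx2 at 0.77 and 0.76.

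Schlafen RNA is often a sign of blood cells, so markers of such cells were read beside Slfn5. Of 24 haematopoietic markers 4 passed the filter, 3 (Nkg7, Ly6g and Gata1) had no count in any library, and 17 had counts but did not pass. The summed level of the list ran from 6.34 to 9.06 CPM with the Yy1 plasmid and from 9.06 to 10.6 CPM with the empty plasmid (two-sided exact permutation p = 0.0571, where 0.0286 is the smallest possible). The ranges touched, and the list was not uniform. The 4 markers that passed the filter all had lower means with the Yy1 plasmid and summed to 5.83 ± 0.301 CPM with the Yy1 plasmid and 8.54 ± 0.583 CPM with the empty plasmid (SD, n = 4 each). Of the 20 that did not pass, 13 had higher means with the Yy1 plasmid and 4 lower ones, and they summed to 1.79 ± 0.890 CPM with the Yy1 plasmid and 1.24 ± 0.187 CPM with the empty plasmid. The largest difference in CPM was in Hbb-bs, the adult beta globin gene, with 9, 6, 41 and 12 counts with the Yy1 plasmid and 67, 47, 53 and 54 with the empty plasmid. Its log2 fold change was -1.99 (SE 0.434), uncalled in edgeR's quasi-likelihood test (adjusted p = 0.126) and called by limma-voom. Cd68, a macrophage marker, was at 0.812 ± 0.103 CPM with the Yy1 plasmid and 1.14 ± 0.125 CPM with the empty plasmid. Its groups did not overlap, as in 3.95% of all tested genes (edgeR adjusted p = 0.909). Itga2b was at 4.08 ± 0.378 CPM with the Yy1 plasmid and 4.71 ± 0.287 CPM with the empty plasmid (edgeR adjusted p = 0.946). Ptprc, the leukocyte antigen gene, did not pass the filter and differed in the other direction, with 19, 17, 9 and 10 counts with the Yy1 plasmid and 2, 5, 2 and 2 with the empty plasmid. Adgre1, a macrophage marker, had 10 counts in Yy1 plasmid library 47 and none elsewhere. Lyz2, the lysozyme gene of myeloid cells, had 4, 1, 34 and 2 counts with the Yy1 plasmid and 15, 5, 2 and 2 with the empty plasmid, and Cd3g, a T cell receptor chain, had 15 counts in all with the Yy1 plasmid and 5 with the empty plasmid. Ptprc, Adgre1, Lyz2 and Cd3g were named after their values were seen. All 4 had higher means with the Yy1 plasmid, unlike the 4 markers that passed the filter. For Adgre1 and Lyz2 the higher mean rested on library 47 alone. The 4 markers that did not pass and had lower means were Cd79a, Ms4a1, Cd8a and Fcer1g, named likewise. The part of blood cell RNA in the Slfn5 difference was not tested. The 13 fibroblast and endothelial markers summed to 4.45 to 6.07 CPM with the Yy1 plasmid and 3.58 to 6.63 CPM with the empty plasmid (two-sided exact permutation p = 0.943). In bulk RNA, fewer cells that express a gene and less RNA per cell cannot be told apart, so Slfn5 may have differed in a few cells or in many.

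The genes whose pattern over the 8 libraries was most like that of Slfn5 were sought by Pearson's r of log2(CPM + 1), as a description, since the libraries form 2 groups and r mostly reflects the difference between them. Among the highest values of tested genes with a symbol were 0.99 for Ren1, 0.98 for Yy1, 0.98 for P2rx7 and 0.95 for Eln. Ren1, which encodes renin, stood at 1.72 ± 0.314 CPM with the Yy1 plasmid and 0.0720 ± 0.0410 CPM with the empty plasmid (SD, n = 4 each). P2rx7, an ATP-gated channel, was at 4.90 ± 0.190 CPM with the Yy1 plasmid and 0.670 ± 0.236 CPM with the empty plasmid. Eln, which encodes elastin, was at 0.603 ± 0.0558 CPM with the Yy1 plasmid and 0.355 ± 0.0435 CPM with the empty plasmid. Besides Yy1, edgeR's test called Ren1 and P2rx7 (adjusted p = 6.02e-08 and 1.71e-09) but not Eln (adjusted p = 0.827). Over all tested genes 0.515% were called. Likeness to Slfn5 over the same libraries favours genes that differ between the groups, so these calls are no separate support. Apart from Yy1, the genes named here are all rare transcripts, like Slfn5.

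The most opposite patterns belonged to Nupr1 (r of -0.98), Ric3 (-0.96), Hbb-bh1 (-0.95), Mre11a (-0.94) and Tle6 (-0.94), over the same 8 libraries. Nupr1, a stress-induced chromatin protein, stood at 8.85 ± 0.202 CPM with the Yy1 plasmid and 10.8 ± 0.298 CPM with the empty plasmid (SD, n = 4 each). Ric3, a receptor chaperone, was at 72.7 ± 0.688 CPM with the Yy1 plasmid and 76.2 ± 0.319 CPM with the empty plasmid. Hbb-bh1, an embryonic globin gene, was at 0.0307 ± 0.0355 CPM with the Yy1 plasmid and 0.410 ± 0.0515 CPM with the empty plasmid. Mre11a, a DNA repair nuclease, was at 54.1 ± 0.841 CPM with the Yy1 plasmid and 56.6 ± 0.467 CPM with the empty plasmid, and Tle6, a corepressor, was at 26.3 ± 0.0501 CPM with the Yy1 plasmid and 29.0 ± 0.600 CPM with the empty plasmid. A high r thus went with differences of very unlike size. Among these genes edgeR's test called Hbb-bh1 (adjusted p = 0.00457). It did not call Nupr1 (adjusted p = 0.189), Tle6 (0.591), Ric3 (0.946) or Mre11a (0.953). A choice by r favours genes with little spread within groups and a difference between them, so the call of Hbb-bh1 is no separate support.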

How the data were processed

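Poly(A) RNA of 8 samples was made into strand-specific libraries, per the labels' protocols. Trimming with fastp and quantification with kallisto on GRCm39 are listed without versions, per the submitters' processing notes. The authors deposited 1 table of estimated counts with no depth scaling, for 75078 Ensembl genes. Each column was matched to its sample by the description in the labels. Values were rounded, and GENCODE mouse release 21, of an older build, gave symbols for 48278 IDs.

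Genes were kept by filterByExpr (10 counts, 15 in all). After TMM scaling, the robust quasi-likelihood test of edgeR 4.0.16 (R 4.3.3) was run on both sides, and p was adjusted by Benjamini and Hochberg's method over 15916 genes at 0.05. The procedure was tested on simulated data. DESeq2 1.42.0 and limma 3.58.1 (voom) were alternatives, beside other scalings and filters and leaving out each library. Promoter pairs were aligned with Biopython 1.88. The members and lists were chosen with earlier results of these data known. Named were all members, Yy1, genes within the cluster and the 3 coding genes on each side, the 3 genes of each list with the smallest p, and the 5 genes at each end of the likeness to Slfn5. Names outside this rule are marked, and a few genes within it are not reported here. A planned alignment of the members' proteins was not analysed here.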

Additional observations from a re-analysis of the deposited data

Results flagged for a closer look

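In 26 groups of 4 libraries, 1 library was far from the other 3 in 4 cases. Chance gives about 5% for continuous values, which does not apply where 1 library has counts and the other 3 have none, as in 3 of the 4 cases. Slfn5 was at 2.73 CPM in Yy1 plasmid library 46, with the next value at 3.70 CPM. Slfn14 was at 0.188 CPM in Yy1 plasmid library 48, from 6 counts, and at 0 in the other 3. In empty plasmid library 32, Slfn14 and Slfn2 were both at 0.0376 CPM, from 1 count each, and at 0 in the other 3 empty plasmid libraries.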

How the results depend on the processing

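The log2 fold change of Slfn5, for which the family was chosen, is described here with no test. It stayed between 1.94 and 1.96 over 10 other settings (scaling, filters, tools, rounding, summed copies). With each library left out it lay between 1.83 and 2.05. Summing copies and changing the filter leave the Slfn5 counts as they are. Slfn9 stayed negative and uncalled, from -0.09 to -0.08 over the settings and from -0.12 to -0.05 with a library left out. Slfn3 ran from 0.08 to 0.12 over the settings and from -0.014 (without empty plasmid 32) to 0.23 with a library left out, and was never called. The 82 called genes became 54 where 1 CPM was required in 4 libraries or more, and 174 when genes were not filtered, those higher 52 and 151 instead of 79, and those lower 23 with no filter and 5 with DESeq2 instead of 3. With a library left out 65 to 87 genes were called, 60 to 83 higher and 2 to 7 lower, with 6 lower without empty plasmid 33, 7 without Yy1 plasmid 45 and 5 without Yy1 plasmid 47. Members of the 5 lists were called in 0 cases under every setting, where 0.515% of all tested genes were called in the main fit. Scalings moved the median log2 fold change of all genes by less than 0.01. The haematopoietic sum differed by -0.33 on the log2(CPM + 1) scale, and the exact permutation p of 0.0571 became 0.0286 with RLE scaling (-0.33) and library size alone (-0.33). With a library left out the difference ran from -0.41 to -0.25, at its largest without Yy1 plasmid 47 (exact permutation p = 0.0286). The fibroblast and endothelial sum ran from -0.15 to 0.095 with a library left out, from -0.013 with all 8. Settings for these sums, the search after the start and the other transcript lengths were chosen after seeing the data. The causes were not tested. No paired analysis was possible because the groups share no sample number. A count of 0 allows up to 3 counts, which is 0.145 CPM in the shallowest library, and group means of 5 of the 6 untested members lie under it.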
